A study of Mus musculus with 40 samples.

Results

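The mitochondrial ribosomal proteins are the nuclear-encoded proteins that, with the ribosomal RNAs of the mitochondrial genome, form the ribosome inside mitochondria. Their genes were taken by name, as the rows of the deposited probe table whose gene symbol begins with Mrpl (large subunit) or Mrps (small subunit) followed by a number, with the most counted probe standing for each gene. This gave 76 genes of 21448 in the table, 48 of the large and 28 of the small subunit, and 74 of them (47 and 27) had enough reads to be tested. The table holds counts from TempO-Seq, a targeted assay in which paired detector oligonucleotides are ligated on each transcript and sequenced, from a single section per mouse of formalin-fixed, paraffin-embedded liver of wildtype male and female Crl:CD1(ICR) mice. The mice were gavaged for 90 days with deionized water (control) or with GenX, the ammonium salt of a short perfluoroalkyl ether acid, in daily doses of 0.1, 0.5 and 5 mg per kg body weight. There were 5 mice per sex and dose. The library of mouse 355, a female at 0.5 mg/kg, was left out for its low depth, so that group held 4 mice.

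The mitochondrial ribosome translates the few messenger RNAs encoded by the mitochondrial genome, all of them for subunits of the respiratory chain and ATP synthase. Its small subunit binds the messenger RNA and reads the codons, and its large subunit joins the amino acids and is held at the inner membrane where the new proteins are inserted. Every protein of both subunits is made in the cytosol and imported, and the ribosome carries many proteins that have no bacterial counterpart. The liver is rich in mitochondria, and agonists of the nuclear receptor PPARα raise fatty acid oxidation in mitochondria and peroxisomes there.

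The 39 libraries held 10341341 to 15562253 reads. Within a library the probe counts clustered at whole multiples of 1 value, the first peak (21 to 50 reads), which was taken as the yield of 1 captured molecule. By this measure the males at 5 mg/kg had 489778 to 649658 molecules per library against 284218 to 367656 in control males, while the females at 5 mg/kg had 306800 to 342557 against 306761 to 522313. The sex labels matched 4 Y-linked genes in 39 of 39 libraries. The 5 hepatocyte markers (Ttr, Alb, Ahsg, Apoa1, Serpinc1) were all read in every group, and their summed level was 34910 to 41204 CPM (reads scaled to a common library size) in control males and 20090 to 27186 CPM at 5 mg/kg. In females it was 26823 to 44127 CPM in controls and 17982 to 27317 CPM at 5 mg/kg, and 3 of the 5 markers were called lower in each sex. Of the marker lists of other cells, that of dividing cells (5 of 5 tested) summed to 0 to 2.94 CPM in control males and 26.8 to 72.0 CPM at 5 mg/kg, and to 0 to 10.6 and 0 to 42.3 CPM in females. Stellate cell markers (6 of 6 tested, 2 called higher in males) summed to 63.7 to 129 CPM in control males and 157 to 194 CPM at 5 mg/kg. Endothelial markers (6 of 6 tested, 1 called lower in males) summed to 165 to 193 CPM and 97.6 to 170 CPM. In females stellate markers summed to 103 to 154 CPM in controls and 95.5 to 151 CPM at 5 mg/kg, and endothelial markers to 185 to 228 and 145 to 219 CPM. Ranges of the Kupffer cell, bile duct, lymphocyte and erythroid lists overlapped between control and 5 mg/kg in both sexes. The hepatocyte values in both sexes and the others printed for males moved with the 5 mg/kg groups. Among these, the ranges of the hepatocyte markers in females and the endothelial markers in males still overlapped those of controls. Their part in the results that follow was not tested. In bulk tissue, fewer cells of a type and less RNA per cell cannot be told apart.

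The genes were measured at low levels in control livers. Together they took up 2159 CPM in the 10 control mice, of which 1290 CPM were the large and 868 CPM the small subunit. The median gene was at 14.3 CPM in the large and 23.3 CPM in the small subunit. Since each probe has its own yield, levels of different genes were not compared as amounts of transcript. Mrpl24 (large subunit) was the most counted of its subunit at 168 ± 20.6 CPM (SD, n = 10), and Mrps34, a small subunit protein with no bacterial counterpart, of its own at 108 ± 21.8 CPM. Neither was called at any dose, and at 5 mg/kg Mrpl24 had log2 fold changes of -0.03 (SE 0.15) in males and 0.10 (SE 0.15) in females. At the other end, Mrpl19 had reads in 4 and Mrps24 in 21 of 39 libraries. Mrpl44 and Mrps27 did not pass the filter on low counts. Counting 1 molecule as the first peak, 30 of the 76 genes had a median of 10 or more molecules per library and 11 had fewer than 1. At 5 mg/kg the standard errors of the log2 fold changes ran from 0.153 to 0.354 in the former and from 1.68 to 2.75 in the 9 of the latter that passed the filter, where the fit gave a difference.

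**Figure D1:**
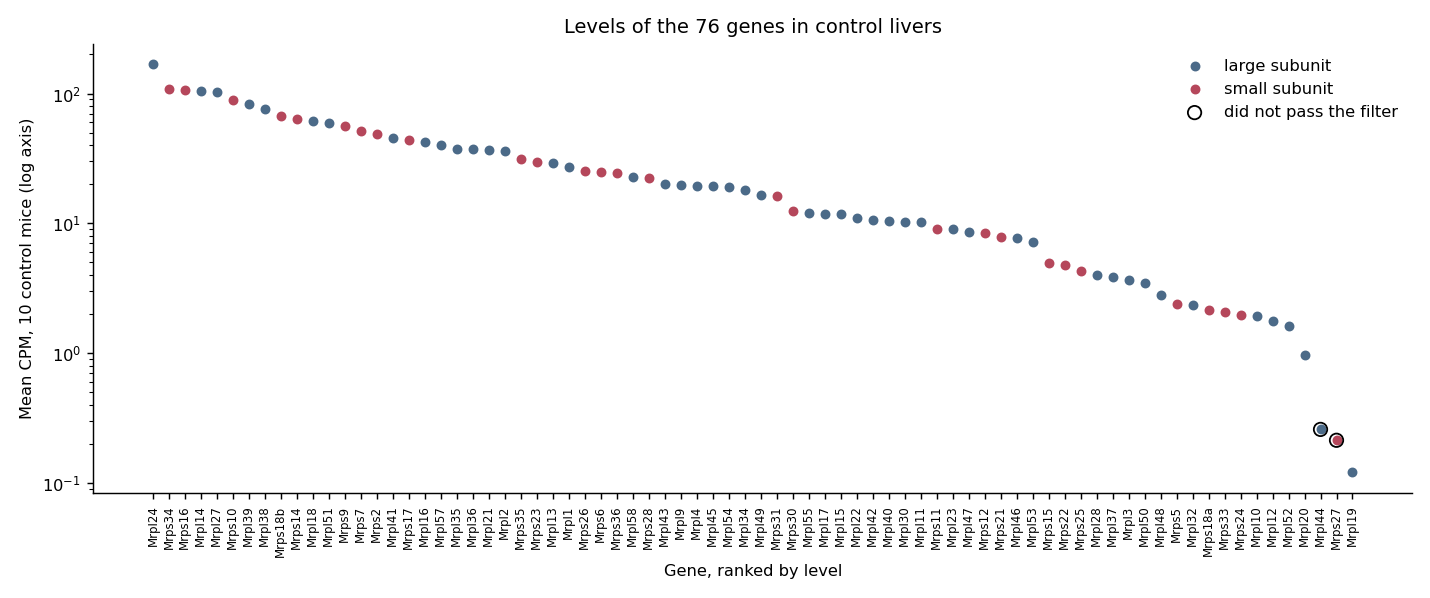
Mean level in the 10 control mice (CPM, log axis) of each of the 76 genes, ranked, with large subunit genes in blue and small subunit genes in red. The levels ran from 168 CPM (Mrpl24) to 0.12 CPM (Mrpl19), and circles mark Mrpl44 and Mrps27, which did not pass the filter.

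Each dose was compared with the control mice of the same sex by edgeR's quasi-likelihood test, with p-values adjusted by Benjamini-Hochberg over all 17877 probes tested and an adjusted p under 0.1 called. At 0.1 mg/kg none of the 74 genes was called in either sex (0.0336% of all probes were called in males, 0% in females). At an unadjusted p under 0.05 there were 3 in males and 3 in females, where 13.6% and 10.3% of all probes passed, and DESeq2 called 0 in both. At 0.5 mg/kg none was called in males (2.38% of all probes, 3 members at an unadjusted p under 0.05 against 18.1% of probes, 0 by DESeq2) and 1, Mrps10, was called in females (0.213%, 4 members at an unadjusted p under 0.05 against 10.2% of probes). In males at 5 mg/kg, 5 of the 74 (6.76%) were called higher, with 4.83% of all probes called higher and 8.28% either way (12 members had an unadjusted p under 0.05, against 22.1% of probes). In females 3 (4.05%) were called higher, against 1.83% higher and 3.66% either way (6 at an unadjusted p under 0.05, 17.9% of probes). None was called lower at any dose, and none was called in both sexes. Over both subunits these shares lay near those of all probes in males. Among the most counted probes of all genes tested, the kind of probe used for the members, 5.59% were called higher and 9.35% either way in males. In females these were 2.09% and 4.09%. All 5 genes called in males were of the small subunit by name (18.5% of 27), with 0 of 47 of the large subunit. The median gene of the small subunit had 9.73 molecules per library and that of the large subunit 5.63. With counts divided by the first peak, the large subunit genes Mrpl54 and Mrpl51 (higher) and Mrpl38 (lower) were called too. A difference between the subunits was not tested.

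At 5 mg/kg the medians did not follow the calls in males. In females the small subunit had both the higher median and the higher share called (2 of 27, 7.41%, against 1 of 47, 2.13%). In males at 5 mg/kg the median log2 fold change was 0.19 in the large and 0.09 in the small subunit, with 0.10 over all probes. The female medians were 0.10 in the large and 0.29 in the small subunit, with -0.01 over all probes, and 22 of 27 small subunit genes were above 0. At 0.5 mg/kg the medians of the large and small subunits came to 0.13 and 0.20 in males (0 over all probes), and females had 0.11 and 0.01 (-0.0014 over all probes). At 0.1 mg/kg the male medians came to 0.04 and 0.25, and both female medians to -0.03.

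**Figure D2:**
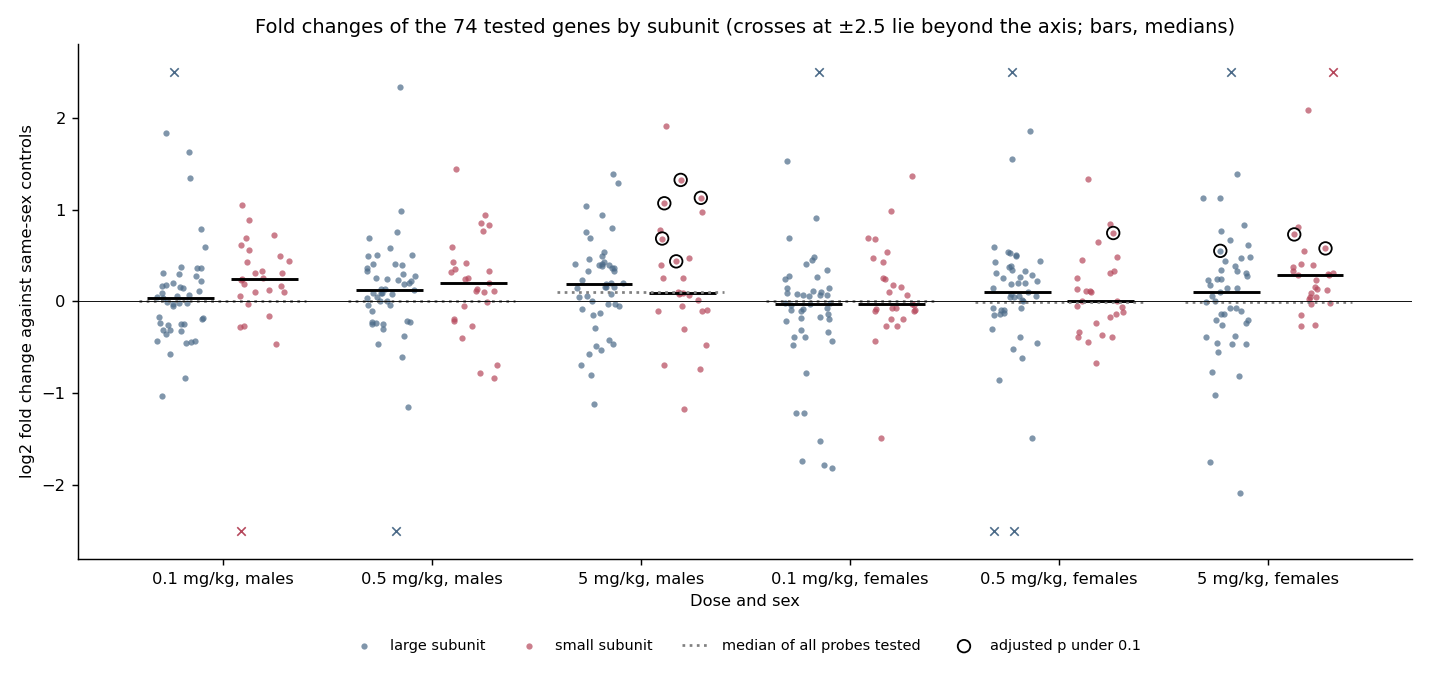
log2 fold change against same-sex controls of each of the 74 tested genes at each dose and sex, large subunit in blue and small subunit in red. Black bars are the medians of each subunit, grey dotted lines the median of all probes tested, circles the genes with an adjusted p under 0.1, and crosses the 9 of 444 values beyond 2.5. The 5 circled genes of the males at 5 mg/kg are all in the red column.

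In males at 5 mg/kg the called genes were Mrps36, Mrps31, Mrps28, Mrps17 and Mrps16, which rose 2.4998, 2.18, 2.097, 1.61 and 1.35-fold. Mrps36 (probe Mrps36_78288, gene at chr13:100735955-100744659 of GRCm38, minus strand) is named for the ribosome but is known as a subunit of the 2-oxoglutarate dehydrogenase complex of the citric acid cycle, and it is absent from structures of the mammalian mitochondrial ribosome. In control males it read 25.4, 17.3, 7.33, 32.5 and 5.96 CPM and at 5 mg/kg 40.3, 59.2, 52.02, 28.6 and 41.1 CPM (log2 fold change 1.32, SE 0.35, adjusted p = 0.011). Of the treated males 4 of 5 were above every control, and 1 was within the control range. The annotation lists 3 pseudogenes of Mrps36, and the probe's sequence was not used here, so reads from them could not be told apart.

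Mrps31 (Mrps31_79347, chr8:22411361-22429665, plus strand) encodes a small subunit protein with no bacterial counterpart. Its levels in control males were 14.6, 16.8, 8.04, 7.38 and 16.5 CPM, and at 5 mg/kg they were 31.9, 33.02, 20.7, 29.7 and 23.1 CPM (log2 fold change 1.13, SE 0.33, adjusted p = 0.025). The groups did not overlap. At 0.1 mg/kg 4 of 5 males were already above all controls (15.2 to 29.04 CPM), as were 3 of 5 at 0.5 mg/kg (11.7 to 28.8 CPM), with adjusted p = 0.35 and 0.26.

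Mrps28 (Mrps28_57218, chr3:8802146-8923918, minus strand) encodes the mitochondrial relative of bacterial ribosomal protein bS1. Control males had 23.2, 23.002, 18.3, 19.2 and 6.504 CPM and males at 5 mg/kg 35.9, 41.5, 43.6, 29.3 and 39.01 CPM (log2 fold change 1.07, SE 0.32, adjusted p = 0.028). The groups did not overlap, and the lowest control, mouse 105, stood well below the other controls. Without it the log2 fold change was 0.85 and the call was lost.

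Mrps17 (Mrps17_75561, chr5:129715497-129722556, plus strand) and Mrps16 (Mrps16_29202, chr14:20389304-20393634, minus strand) encode small subunit proteins that have bacterial counterparts and contact the ribosomal RNA. For Mrps17 the control males read 39.99, 31.8, 38.9, 28.02 and 52.8 CPM and the males at 5 mg/kg 77.9, 70.3, 52.6, 64.5 and 42.5 CPM (log2 fold change 0.68, SE 0.23, adjusted p = 0.069). The groups overlapped, with 3 of 5 treated males above every control. For Mrps16 the values were 128, 108, 103, 105 and 103 CPM in controls and 151, 153, 139.7, 147 and 149 CPM at 5 mg/kg (log2 fold change 0.44, SE 0.16, adjusted p = 0.096). The Mrps16 groups did not overlap at 5 mg/kg, nor at 0.5 mg/kg (135 to 161 CPM, log2 fold change 0.42, SE 0.16, adjusted p = 0.23), where 3.34% of all probes did not overlap. Both calls were near the threshold. That of Mrps17 was lost without control mouse 102, 103 or 104 or treated mouse 401, 402 or 404 (log2 fold change 0.59 to 0.69), and that of Mrps16 held only without control mouse 101 among the 10 mice left out in turn (0.41 to 0.50).

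**Figure D3:**
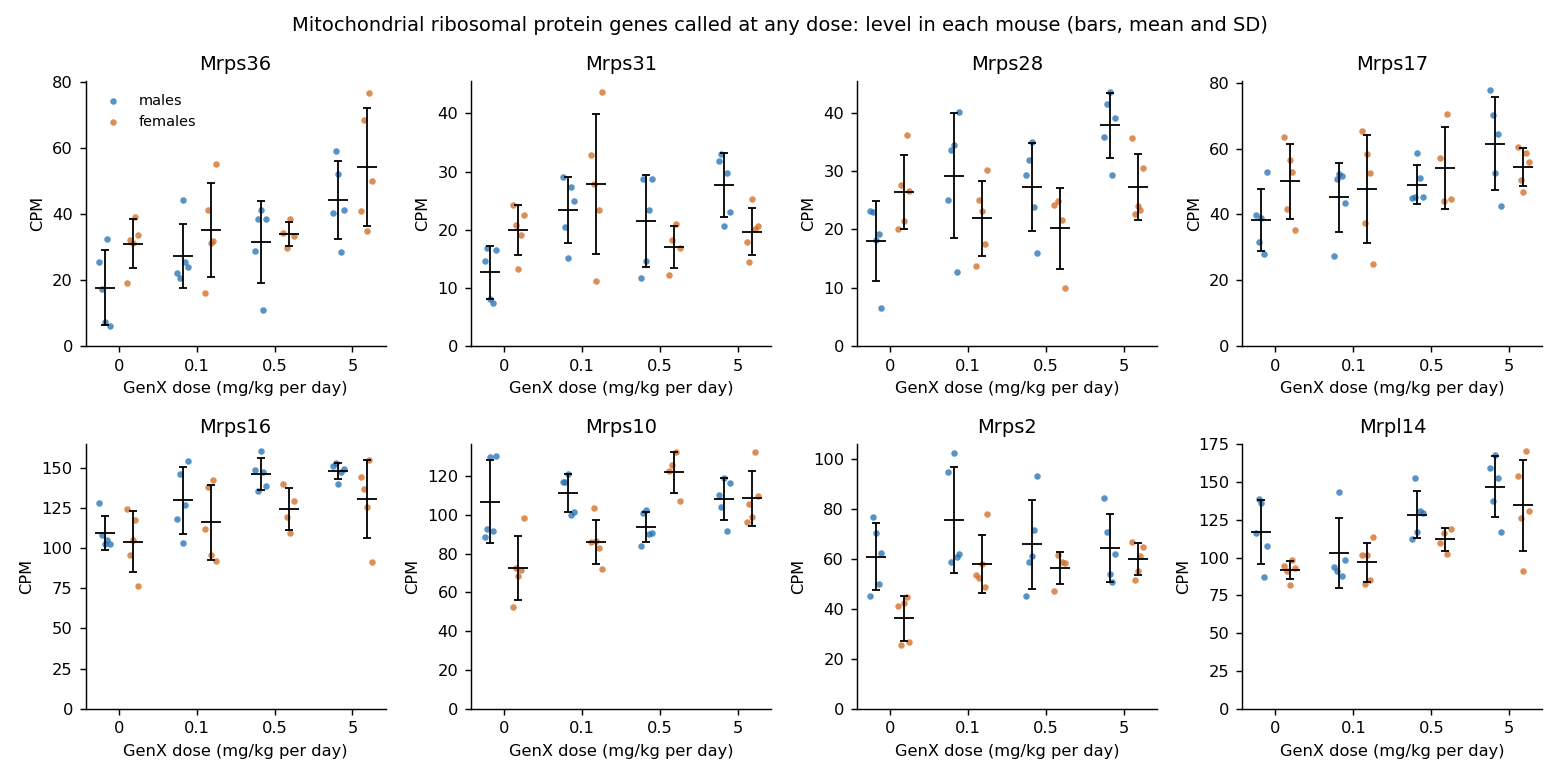
Level (CPM) of the 8 genes called at any dose in each of the 39 mice, by dose on the horizontal axis, males in blue and females in orange, with bars for the mean and SD of each group. In males Mrps31, Mrps28 and Mrps16 at 5 mg/kg lie wholly above the controls, and in females Mrps10 and Mrpl14 at 0.5 mg/kg and Mrps2 at every dose do.

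The library molecule numbers given above were higher in the males at 5 mg/kg than in control males, and this moved with these calls. With counts divided by the first peak and rounded, which leaves 38 of the genes testable, all 5 stayed called and Mrps6, Mrpl54, Mrpl51 (higher) and Mrpl38 (lower) were called besides. The share of all probes called in this setting is not given here, so the larger number of calls cannot be read as particular to these genes. The promoters of the called genes are shown because the genes were called together in males. The windows run 250 bases before to 50 after the RefSeq start (GRCm38.p6), 5′ to 3′ on the gene's strand, for the 4 of the 5 genes with an entry (for Mrps16 the entry whose start matches the gene annotation). Capitals mark each match to CGGAAG, the core bound by ETS family factors, or to its reverse complement.
Mrps31 (chr8:22411090-22411389, plus strand): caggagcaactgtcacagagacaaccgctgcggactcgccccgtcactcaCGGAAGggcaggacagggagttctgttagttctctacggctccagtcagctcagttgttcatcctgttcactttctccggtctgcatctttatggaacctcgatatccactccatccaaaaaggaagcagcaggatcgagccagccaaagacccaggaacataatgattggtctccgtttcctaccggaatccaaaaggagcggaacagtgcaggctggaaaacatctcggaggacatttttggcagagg
Mrps17 (chr5:129715247-129715546, plus strand): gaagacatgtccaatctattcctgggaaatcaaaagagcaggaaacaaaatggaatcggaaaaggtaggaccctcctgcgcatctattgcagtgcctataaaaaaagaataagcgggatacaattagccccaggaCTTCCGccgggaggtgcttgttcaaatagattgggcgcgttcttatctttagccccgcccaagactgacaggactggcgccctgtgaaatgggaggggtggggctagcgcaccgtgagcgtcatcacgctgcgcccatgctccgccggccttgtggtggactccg
Mrps16 (chr14:20393585-20393884, minus strand): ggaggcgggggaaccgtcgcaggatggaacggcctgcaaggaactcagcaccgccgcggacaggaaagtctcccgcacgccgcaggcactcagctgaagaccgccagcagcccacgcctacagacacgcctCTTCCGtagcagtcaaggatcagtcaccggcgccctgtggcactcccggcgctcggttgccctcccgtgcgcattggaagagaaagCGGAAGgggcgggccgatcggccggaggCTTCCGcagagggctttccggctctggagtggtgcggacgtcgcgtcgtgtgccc
Mrps36 (chr13:100744610-100744909, minus strand): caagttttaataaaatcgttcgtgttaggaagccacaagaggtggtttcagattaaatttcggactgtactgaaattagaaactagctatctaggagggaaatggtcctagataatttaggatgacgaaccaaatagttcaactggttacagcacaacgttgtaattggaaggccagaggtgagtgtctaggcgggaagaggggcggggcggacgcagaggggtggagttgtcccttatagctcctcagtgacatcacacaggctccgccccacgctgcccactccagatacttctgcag
The ETS core was found in 3 of the 4 windows, once in Mrps31 and Mrps17 and 3 times in Mrps16, and not in Mrps36. Over all members it was in 52.1% of the windows, and in 57.7% of those of the small subunit. A match is a description of the letters and not of binding.

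Of the large subunit, 31 of 47 genes had positive and 15 negative log2 fold changes in males at 5 mg/kg, and 6 had an unadjusted p under 0.05 (4 higher, 2 lower). Mrpl54, a large subunit protein with no bacterial counterpart, did not overlap between the groups at 6.9005 to 25.7 CPM in controls and 28.1 to 42.3 CPM at 5 mg/kg (log2 fold change 0.94, SE 0.39, adjusted p = 0.16). In all, 5 of the 74 genes did not overlap in this comparison (Mrpl54, Mrps16, Mrps28, Mrps31 and Mrps33), where 8.48% of all probes did not. Mrpl51 read 48.2 to 77.95 CPM in controls and 72.5 to 93.7 CPM at 5 mg/kg (log2 fold change 0.49, SE 0.21, adjusted p = 0.18). The 2 lower genes with an unadjusted p under 0.05 were Mrpl38 and Mrpl43, both proteins found only in mitochondrial ribosomes. Mrpl38 had 70.6, 108, 95.97, 97.4 and 76.96 CPM in control males and 65.9, 78.9, 68.9, 45.01 and 66.3 CPM at 5 mg/kg (log2 fold change -0.47, SE 0.21, adjusted p = 0.19), with 4 of 5 treated males below every control. DESeq2 called this difference (log2 fold change -0.54), as did edgeR with the stricter filter on low counts (-0.52). DESeq2 made more false calls than edgeR on simulated counts, which cannot show how the tools compare on the real counts. Mrpl43 read 24.3 ± 5.21 CPM in controls and 13.9 ± 4.69 CPM at 5 mg/kg (SD, n = 5, log2 fold change -0.80, SE 0.37, adjusted p = 0.20).

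In females the genes called at 5 mg/kg were Mrps10, Mrps2 and Mrpl14, which rose 1.49, 1.66 and 1.46-fold. Mrps10 (Mrps10_77643, chr17:47368887-47381417, plus strand) encodes a protein of the head of the small subunit with a bacterial counterpart. Control females read 52.5, 72.4, 68.5, 71.8 and 98.4 CPM, females at 0.5 mg/kg 123, 126, 132 and 107 CPM (log2 fold change 0.74, SE 0.17, adjusted p = 0.032) and females at 5 mg/kg 96.1, 106, 98.9, 132 and 109.8 CPM (log2 fold change 0.58, SE 0.16, adjusted p = 0.03). The 0.5 mg/kg mice were all above the controls, and at 5 mg/kg 1 of 5 lay below the highest control. At 0.1 mg/kg the range was 71.9 to 104 CPM (log2 fold change 0.24, SE 0.16, adjusted p = 0.93). The call at 0.5 mg/kg was lost without control mouse 151 or treated mouse 352 or 353 (log2 fold change 0.65 to 0.73), and the call at 5 mg/kg without mouse 151 or 454 (0.48 and 0.50). A different probe of Mrps10, Mrps10_80028, was called at 5 mg/kg as well (log2 fold change 0.99, SE 0.31, adjusted p = 0.073) and had log2 fold change 0.94, SE 0.32, adjusted p = 0.48 at 0.5 mg/kg. It comes from the same livers, so it bears on the probe and not on the mice.

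Mrps2 (Mrps2_31179, chr2:28468066-28471178, plus strand) encodes a small subunit protein that also has a bacterial counterpart. Control females had 41.1, 25.5, 42.3, 44.8 and 26.9 CPM and females at 5 mg/kg 66.5, 51.6, 55.1, 61.1 and 64.9 CPM (log2 fold change 0.73, SE 0.22, adjusted p = 0.051). Every treated female was above every control female, also at 0.1 mg/kg (48.7 to 77.9 CPM, adjusted p = 0.47) and at 0.5 mg/kg (46.99 to 61.6 CPM, adjusted p = 0.48). In all 1 of the 74 genes did not overlap at 0.1 mg/kg (0.571% of all probes), 4 at 0.5 mg/kg (Mrps2, Mrps10 and Mrpl14 higher, Mrpl34 lower, 1.7% of all probes) and 2 at 5 mg/kg (Mrps2 and Mrpl17, 3.35%). The level did not climb with dose after 0.1 mg/kg, so the difference lay mainly between the control females and the rest. The call at 5 mg/kg was lost without mouse 152, 155, 451 or 455 (log2 fold change 0.63 to 0.70).

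Mrpl14 (Mrpl14_72426, chr17:45686322-45698495, plus strand), the large subunit gene among them, encodes a conserved protein on the face of the large subunit that meets the small subunit. Its levels were 94.2, 91.5, 82.05, 98.6 and 93.3 CPM in control females, 109.9, 117, 103 and 119 CPM at 0.5 mg/kg and 154, 126, 91.1, 171 and 131 CPM at 5 mg/kg (log2 fold change 0.55, SE 0.16, adjusted p = 0.055). At 5 mg/kg 4 of 5 were above every control, and mouse 453 was within the control range. In males the same gene had 117 ± 21.1 CPM in controls and 147 ± 19.99 CPM at 5 mg/kg (SD, n = 5, log2 fold change 0.33, SE 0.16, adjusted p = 0.23). The call in females was lost without mouse 152, 153, 451 or 454 (log2 fold change 0.45 to 0.55).

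The windows of these 3 promoters are printed for comparison with those above. None holds the ETS core, so no letter is in capitals. The Mrps10 window begins after the gene's annotated start (47368887), so it shows no bases before that start.
Mrps10 (chr17:47368947-47369246, plus strand): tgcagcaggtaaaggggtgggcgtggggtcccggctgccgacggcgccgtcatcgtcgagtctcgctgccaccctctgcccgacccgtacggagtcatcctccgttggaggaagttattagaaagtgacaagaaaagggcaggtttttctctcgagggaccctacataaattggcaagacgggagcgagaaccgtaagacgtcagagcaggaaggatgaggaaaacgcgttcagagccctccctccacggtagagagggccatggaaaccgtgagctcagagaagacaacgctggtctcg
Mrps2 (chr2:28467816-28468115, plus strand): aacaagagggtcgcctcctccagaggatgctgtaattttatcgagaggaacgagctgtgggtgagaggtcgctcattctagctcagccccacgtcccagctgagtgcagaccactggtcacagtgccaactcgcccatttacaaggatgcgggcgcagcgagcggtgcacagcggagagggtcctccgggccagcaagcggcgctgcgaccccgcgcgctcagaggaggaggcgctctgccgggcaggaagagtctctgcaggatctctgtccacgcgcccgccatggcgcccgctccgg
Mrpl14 (chr17:45686099-45686398, plus strand): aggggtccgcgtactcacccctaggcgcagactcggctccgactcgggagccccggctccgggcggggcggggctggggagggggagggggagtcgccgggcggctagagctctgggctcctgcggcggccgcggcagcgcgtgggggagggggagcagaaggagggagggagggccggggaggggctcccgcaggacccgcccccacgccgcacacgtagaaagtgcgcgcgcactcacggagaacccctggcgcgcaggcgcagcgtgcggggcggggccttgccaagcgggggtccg
These sets of 4 and 3 promoters are too small for a comparison between the sexes.

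Further members were not called in females. Mrps36 read 19.05, 32.01, 31.1, 39.02 and 33.7 CPM in control females and 40.8, 68.5, 34.8, 76.7 and 49.99 CPM at 5 mg/kg (log2 fold change 0.81, SE 0.35, adjusted p = 0.26), with 4 of 5 above every control. Mrpl17, a conserved protein at the exit of the large subunit's tunnel, had 6.68 to 15.3 CPM in controls and 17.3 to 40.9 CPM at 5 mg/kg (log2 fold change 1.12, SE 0.46, adjusted p = 0.26), and the groups did not overlap. Both were called when counts were divided by the first peak. Mrpl34 went the other way, at 14.9 ± 2.13 CPM in controls and 8.44 ± 6.43 CPM at 5 mg/kg (SD, n = 5, log2 fold change -0.82, SE 0.46, adjusted p = 0.39), and the log2 fold change was -1.29 without mouse 454.

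The genes called in males and females differed, and the difference between the sexes was tested directly as an interaction. At 0.5 mg/kg the interaction was called for Mrps10 (females minus males, 4 of 74 genes at an unadjusted p under 0.05 against 10.9%, log2 difference 0.93, SE 0.23, adjusted p = 0.081), where 0.274% of all probes were called. Males at 0.5 mg/kg read 84.1, 101, 102, 90.4 and 90.7 CPM for Mrps10 and control males 88.8, 92.8, 129.7, 91.9 and 130.3 CPM, a fitted difference with the opposite sign (log2 fold change -0.19, SE 0.16, adjusted p = 0.78). No interaction was called at 5 mg/kg (1.04% of all probes, 6 of the 74 genes at an unadjusted p under 0.05 against 12.4%). DESeq2 called 1, Mrps10 (log2 difference 0.65, SE 0.20, adjusted p = 0.059). edgeR on counts divided by the first peak called Mrps10 as well (log2 difference 0.67, SE 0.21, adjusted p = 0.047). For Mrps31 the fitted log2 difference of females minus males at 5 mg/kg was -1.15 (adjusted p = 0.26) and for Mrps28 -1.02 (adjusted p = 0.32). A gene called in males alone was therefore not shown to differ between the sexes at 5 mg/kg. At 0.1 mg/kg no interaction was called (0% of all probes, 2 of the 74 genes at an unadjusted p under 0.05 against 8.41%, 0 by DESeq2).

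The control mice differed by sex in 2 of the 3 genes called in females at 5 mg/kg. Mrps2 was lower in control females than in control males (36.1 ± 9.18 CPM and 60.8 ± 13.4 CPM, SD, n = 5, log2 difference -0.75, SE 0.22, adjusted p = 0.045), and so was Mrps10 (72.7 ± 16.5 CPM and 107 ± 21.3 CPM, log2 difference -0.55, SE 0.16, adjusted p = 0.046). These were the only 2 of the 74 genes called between the controls (3.49% of all probes), with 7 at an unadjusted p under 0.05 (18.9% of probes). The control females serve in both this comparison and the dose comparisons, so the 2 sets of values are not independent. The values at 5 mg/kg, side by side and not tested, were 109 ± 14.3 CPM in females and 108 ± 10.9 CPM in males for Mrps10 and 59.8 ± 6.36 CPM and 64.3 ± 13.6 CPM for Mrps2.

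**Figure D4:**
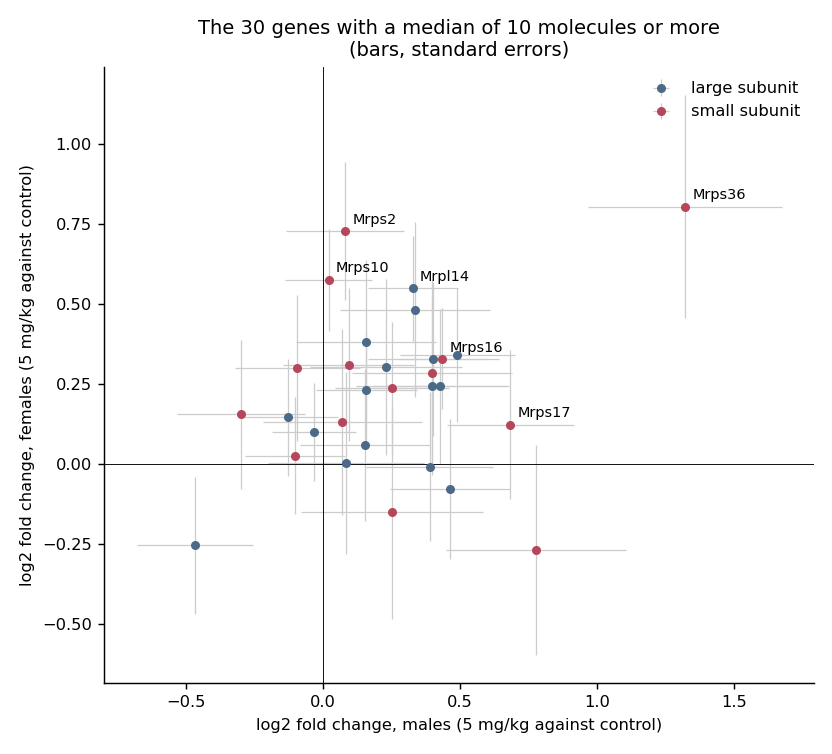
log2 fold change at 5 mg/kg against same-sex controls in males (horizontal) and females (vertical) for the 30 genes with a median of 10 or more molecules per library, with bars for the standard error, large subunit in blue and small subunit in red. Mrps36 lies to the upper right, while Mrps10 and Mrps2 lie near 0 on the male axis. Of the 30 genes 20 were above 0 in both sexes and 1 below 0 in both.

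Across the 74 genes the log2 fold changes at 5 mg/kg of the 2 sexes had a Pearson correlation of 0.07, and 0.28 over the 30 genes with a median of 10 or more molecules, given as descriptions since genes are not replicates. The step from 0.5 to 5 mg/kg called none of the 74 genes in either sex (2.64% of all probes in males and 1.23% in females), with 0 male and 1 female value at an unadjusted p under 0.05 (15.5% and 13.9% of probes) and 0 in both by DESeq2. Group means were higher at each of the 3 steps from control to 5 mg/kg for 6 of 47 large and 6 of 27 small subunit genes in males, among them Mrps16, Mrps17 and Mrps36 (12.8% and 22.2%, against 8.22% of all probes). In females 2 and 1 did so, Mrpl14, Mrpl17 and Mrps16 (4.26% and 3.70%, against 4.86%). Means were lower at each step for 2 large and 0 small subunit genes in males (6.17% of all probes), and for 2 and 1 in females (5.27%).

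The summed level of each subunit shows the bulk of its counted members, and is given as a description with no test since the genes were chosen as a group. In males the 48 large subunit genes summed to 1361, 1388, 1374, 1294 and 1341 CPM in controls and 1566, 1415, 1549, 1417 and 1573 CPM at 5 mg/kg, 11.3% higher by the means. The 28 small subunit genes summed to 937, 871, 897, 854 and 909.8 CPM and 1105, 1108, 1031, 976 and 1013 CPM, 17.1% higher. Neither pair of groups overlapped. In females the large subunit summed to 1231, 1247, 1190.0, 1229 and 1248 CPM in controls and 1410.1, 1445, 1275, 1462 and 1292 CPM at 5 mg/kg, 12.03% higher. The small subunit summed to 868, 868, 839, 853 and 787 CPM and 985, 1084, 1026, 1029.6 and 1024 CPM, 22.1% higher, and again neither pair overlapped. The lower doses did not all follow one order. The male large subunit sum differed by -1.39% at 0.1 mg/kg and 5.97% at 0.5 mg/kg (2 and 4 of 5 mice above every control, and at 0.1 mg/kg 2 below), and the male small subunit sum by 10.5% and 9.57% (3 and 4 of 5 above). The female large subunit sum differed by 0.125% and 10.3% (1 of 5 and 4 of 4 above), and the female small subunit sum by 3.25% and 10.6% (2 of 5 and 3 of 4 above).

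The differences of these sums are net of genes with higher and genes with lower means. The 5 genes with the largest rises equalled 68.6% of the net difference of the large and 80.8% of that of the small subunit in males. In females they equalled 67.5% and 66.3%. Because the lower genes are subtracted, the shares of all rising genes add up to more than the whole. In males 32 of 48 large and 18 of 28 small subunit genes had higher means at 5 mg/kg, and in females 27 and 22. The sums also depended on how libraries were scaled, since the male sums at 5 mg/kg were 5.79% (large) and 11.3% (small) higher under DESeq2's size factors, with 3 and 4 of 5 mice above every control, and 22.0095% and 28.5% higher when scaled by library totals alone. The same sums over other ribosomal and respiratory genes were higher too, by 16.8% in males and 18.1% in females for 81 cytosolic ribosomal protein genes and by 21.1% and 29.8% for 82 oxidative phosphorylation subunit genes. The large subunit differed by less than both in each sex and the small subunit by a value between them, which was not tested. The small subunit sum includes Mrps36, which is absent from structures of the ribosome. It made up 17.4% of the small subunit difference in males and 12.4% in females. The sums and the ratio below were not taken without it.

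The ratio of the small to the large subunit sum does not depend on how libraries are scaled. In males it was 0.689, 0.627, 0.653, 0.6599 and 0.679 in controls and 0.705, 0.783, 0.665, 0.689 and 0.644 at 5 mg/kg, and in females 0.705, 0.696, 0.705, 0.694 and 0.631 and 0.699, 0.7502, 0.805, 0.704 and 0.792. The groups overlapped in both sexes, with 2 of 5 treated males and 3 of 5 treated females above every control. The mean was 5.401% higher for males at 5 mg/kg and 9.29% higher for females. The largest mean difference was at 0.1 mg/kg in males (0.744 ± 0.07498 against 0.662 ± 0.0239, SD, n = 5), and at 0.5 mg/kg the males were at 0.685 ± 0.0531, so the ratio did not follow dose.

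**Figure D5:**
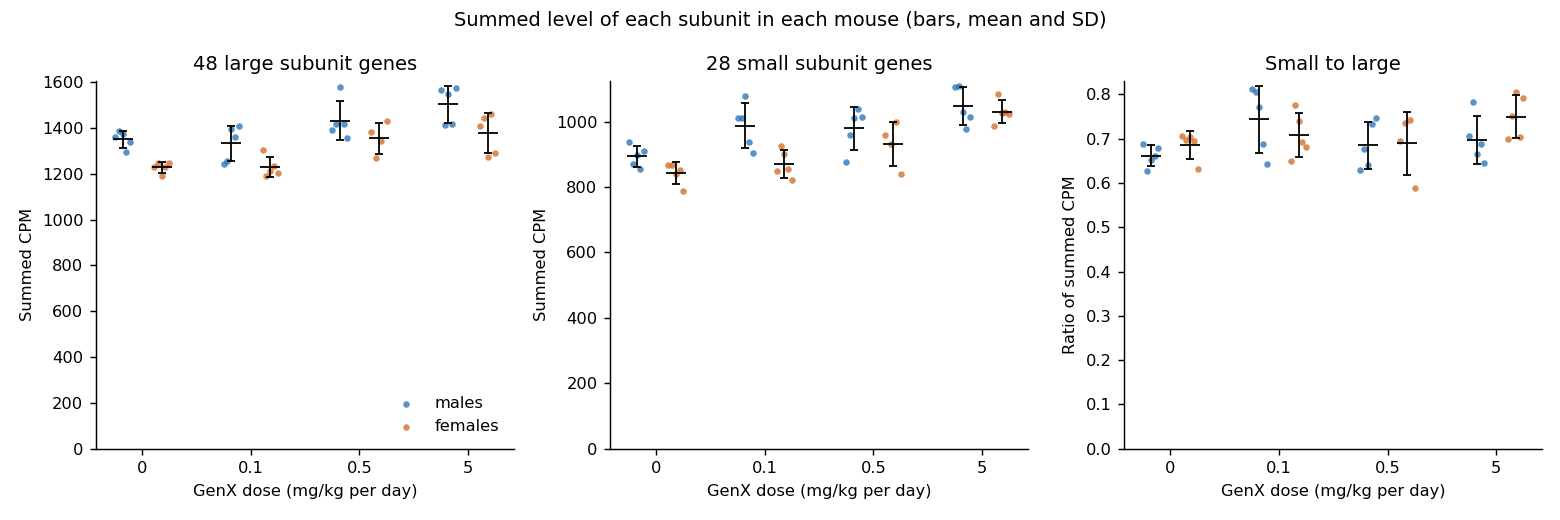
Summed level (CPM) of the 48 large subunit genes (left) and the 28 small subunit genes (middle) and the ratio of small to large (right) in each mouse by dose, males in blue and females in orange, with the mean and SD of each group. At 5 mg/kg the sums of all 10 treated mice are above the controls of their sex, and the ratios overlap.

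Some members carry the name of a subunit in which structures do not place them. Mrps18a and Mrps30 sit in the large subunit by structure. Mrps18b, of the same family as Mrps18a, is a variant found in the small subunit (the third variant, Mrps18c, was not analysed here). Mrps18b had 73.6 ± 20.1 CPM in control males and 78.6 ± 13.96 CPM at 5 mg/kg (SD, n = 5, log2 fold change 0.09, SE 0.24, adjusted p = 1), and 59.5 ± 9.95 CPM and 73.8 ± 14.3 CPM in females (log2 fold change 0.31, SE 0.24, adjusted p = 0.74). Mrps18a had reads in 26 of 39 libraries and Mrpl12, the stalk protein of the large subunit, in 23, and neither was called at any dose. Mrps30 had log2 fold changes of 0.09 (SE 0.49) in males and 0.55 (SE 0.49) in females at 5 mg/kg. With these moved and Mrps36 left out, 4 of 24 small and 0 of 49 large subunit genes were called in males at 5 mg/kg, and the medians were 0.09 and 0.19.

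Of the 76 genes 24 had more than 1 probe, with 31 further probes. In males at 5 mg/kg 18 of the 24 tested further probes had the same sign of change as the most counted probe and 0 were called. In females 12 of 24 had the same sign and 1 was called, that of Mrps10. Mrps36, Mrps31, Mrps28 and Mrpl14 each had a single probe, so their calls could not be checked on another probe. The further probes of Mrps17 (log2 fold change 0.40, SE 0.49, and 0.45, SE 0.73) and of Mrps16 (0.17, SE 0.38) were not called in males.

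The 76 genes lie on 17 chromosomes, with 11 on chromosome 11. Promoter windows were found in RefSeq for 67 of them (73 windows). On either strand, 52.1% of these windows held the ETS core CGGAAG, against 16.9% of all 32817 promoter windows of the same length. The core GCATGCGC of sites bound by NRF1, a regulator of nuclear genes for mitochondria, was in 9.59% of them, against 2.71%. The middle of a direct repeat of the kind bound by PPARα, GGTCANAGG, was in 2 windows (Mrpl11 and Mrpl52, 2.74% against 1.71%). None of these motifs contains another. The windows of the members had a median GC content of 58.7%, against 52.7% over all, and the part of this in the shares was not tested. By subunit the ETS core was in 48.9% of large and 57.7% of small subunit windows. Windows of 23 of the 67 genes (34.3%) overlapped that of another gene on the opposite strand, against 11.9% of all genes.

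Several of these partners are themselves mitochondrial, among them Twnk, the helicase that replicates mitochondrial DNA, beside Mrpl43, the complex I subunit Ndufb5 beside Mrpl47, and the mitochondrial seryl-tRNA synthetase Sars2 beside Mrps12. In 1 pair both genes are members. Mrps11 of the small and Mrpl46 of the large subunit have windows that share 141 bases on chromosome 7, so that 1 stretch of DNA lies before a gene of each subunit. Mrps11 had, at 5 mg/kg, log2 fold changes of -0.04 (SE 0.59) in males and 0.29 (SE 0.59) in females, and Mrpl46 of -0.15 (SE 0.68) in males and 0.67 (SE 0.68) in females. Neither was called, at a median of 4.11 and 3.47 molecules per library. Mrpl14, called in females, shares 230 bases of its window with Tmem63b.

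The other genes of mitochondrial translation were counted from lists, to be read beside the 4.83% of all probes called higher in males at 5 mg/kg and the 1.83% in females. In males at 5 mg/kg 1 of 5 mitoribosomal subunits with other names was called, Ptcd3, a small subunit protein, from 23.2 to 39.96 CPM (log2 fold change 0.78, SE 0.25, adjusted p = 0.047). Of 8 translation factors 1 was called, Gfm2, which splits the ribosome for recycling, from 66.6 to 97.99 CPM (log2 fold change 0.56, SE 0.20, adjusted p = 0.093). Of 17 mitochondrial aminoacyl-tRNA synthetases 1 was called, Iars2, which charges the isoleucine tRNA, from 73.6 to 116 CPM (log2 fold change 0.65, SE 0.19, adjusted p = 0.023). None of 20 genes of ribosome assembly and rRNA modification was called in males (2 at an unadjusted p under 0.05). Among 15 regulators of mitochondrial gene expression, Slirp, which binds mitochondrial messenger RNAs together with Lrpprc, was called in both sexes, from 63.8 to 97.8 CPM (log2 fold change 0.62, SE 0.21, adjusted p = 0.077) in males and from 57.6 to 96.2 CPM (log2 fold change 0.74, SE 0.21, adjusted p = 0.043) in females. In females 1 of 20 assembly genes, Mtg1, a GTPase of large subunit assembly, was called as well, from 71.7 to 110.4 CPM (log2 fold change 0.62, SE 0.17, adjusted p = 0.028), and none of the translation factors, synthetases or other-named subunits. All of these calls were for higher levels. The lists are read beside 19.7% of 76 oxidative phosphorylation genes called higher in each sex, and 24.7% (males) and 7.79% (females) of 77 cytosolic ribosomal protein genes.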

How the data were processed

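The authors extracted reads per probe from TempO-Seq libraries of 40 liver sections and deposited raw counts, 30146 probes by 40 mice. Bowtie, mm10 and bcl2fastq 2.17.1.14 are named in the submitters' processing notes. Probe sequences were not used here. Samples were grouped by sex and dose from their labels. The genes and lists were chosen with earlier results of these data known. Mouse 355 was left out because its total fell more than 2 SD below the mean, as in the study's methods. All 39 other libraries were fitted at once with edgeR 4.0.16 (R 4.3.3, TMM scaling, filterByExpr, quasi-likelihood test), with Benjamini-Hochberg adjustment over the 17877 probes kept and calls at an FDR of 10%. The study's methods use DESeq2, which was run as an alternative (1.42.0). CPM are counts scaled by the TMM library size. Captured molecules are counts divided by the first peak of a library's histogram. Totals of 10341341 to 15562253 reads limit the precision for genes of few molecules. The fits were tested on simulated data, where DESeq2 made more false calls than edgeR. Those counts were drawn with edgeR's own dispersions and without the clustering at whole multiples. They therefore cannot show which tool makes more false calls on the real counts. Named genes were the 4 called genes with the largest change per sex and subunit at 5 mg/kg (filled up by the smallest p), those called in both sexes, at lower doses or in an interaction, the highest and lowest of each subunit in controls, those that did not pass the filter, and Mrpl12, Mrps18a, Mrps18b, Mrps30 and Mrps36 for their known roles. Other genes named for overlap, promoters or lists were chosen after their values were seen. Alternatives were DESeq2, its size factors, 2 filters, fits by sex, all 40 libraries, captured molecules, the second most counted probe and leaving out each mouse. P-values measure the spread between single mice.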

Additional observations from a re-analysis of the deposited data

Results flagged for a closer look

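Single mice stood apart from their group in 5 of the 88 checks of 4 or 5 mice (8 genes, both summed levels and their ratio, in 8 groups), where chance gives about 1 in 20. Mouse 203, a male at 0.1 mg/kg, had 143 CPM of Mrpl14, against 87.9 to 98.5 CPM in the rest of its group. The same mouse had 44.1 CPM of Mrps36, with the others at 20.6 to 25.4 CPM. Control male 101 had 128 CPM of Mrps16 against 103 to 108 CPM. Mouse 303, a male at 0.5 mg/kg, had a summed large subunit level of 1578 CPM, and the next highest of its group was at 1419 CPM. Control female 155 had a ratio of small to large subunit of 0.631, and the next lowest was 0.694.

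The response of Mrps10 at 0.5 mg/kg differed between the sexes by an interaction test in edgeR (log2 fold change of females minus males 0.93, SE 0.23, adjusted p = 0.081). Females at 0.5 mg/kg were above every control female in 4 of 4 mice, and 1 of 5 males was below every control male. The call was lost with mouse 355 included (0.65).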

How the results depend on the processing

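The counts of called genes changed with settings of the test, the probe used and the libraries included, and no called value changed sign. In males at 5 mg/kg 3 genes were called (in place of 5) with DESeq2's size factors in edgeR, without a filter on low counts and with all 40 libraries, 9 with captured molecules and 0 with the second most counted probe. In females at 5 mg/kg 0 (in place of 3) were called without the filter and with all 40 libraries, 5 with captured molecules and 1 with the second probe. The shares of all probes called under these alternatives are not given here, so these counts cannot be set against them. The 1 call in females at 0.5 mg/kg was 0 without the filter, in females alone, with all 40 libraries and with the second probe. The interaction called 0 at 0.5 mg/kg with all 40 libraries, and 1 at 5 mg/kg by DESeq2 and with captured molecules. Leaving out each mouse in turn gave 3 to 6 calls for males at 5 mg/kg (3 without 102, 103, 104, 105, 401, 402 or 404), 1 to 3 for females at the same dose (1 without 152, 451 or 454), 0 to 1 for females at 0.5 mg/kg, and a male large subunit median of 0.15 to 0.28 at 5 mg/kg. With the second probe the medians of the large and small subunits read 0.35 and 0.40 for males at 5 mg/kg, 0.30 and 0.28 for females at 0.1 mg/kg, 0.35 and 0.28 for females at 0.5 mg/kg, and the small subunit median -0.084 in males at 0.1 mg/kg; only 20 genes had a second probe that was tested. Added after seeing the data, other scalings moved the summed levels at 5 mg/kg: DESeq2's size factors gave 5.79% (large) and 11.3% (small) in males, and library totals alone 22.0095% and 28.5% in males and 17.8% and 28.2% in females. Beyond the construction of each alternative, the cause was not tested. Calls held for Mrps36 and Mrps31 under all 7 alternatives and all 10 mice left out, for Mrps28 under 7 and 9, Mrps17 4 and 4, Mrps16 4 and 1, Mrps10 in females at 5 mg/kg 5 and 8, and Mrps2 and Mrpl14 5 and 6 each. No paired analysis was possible because the groups compared share no animal numbers.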
